A study of Mus musculus with 29 samples.

Results

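Mesp1, Mesp2, Ripply1, Ripply2, Tbx6, Msgn1 and T are transcription regulators of the presomitic mesoderm and of the border where a somite is cut off from it. These 7 genes were taken by symbol from the 23337 genes counted in each library, and all 7 passed the filter on low counts. They were compared in mouse embryos at E9.0 between tissue that had formed somites and presomitic mesoderm kept in culture. All 29 libraries come from C57BL/6 embryos with a Dll1-YFP lineage mark, which labels cells descended from those that expressed Dll1. SOMA (n = 3) is uncultured presomitic mesoderm with the newest somite, SOMB (n = 4) somites 2 to 5, SOMC (n = 4) somites 6 to 9 and SOMD (n = 4) somites from 10 on, each as lineage cells sorted by YFP. CTRL and DIR (n = 4 each) are sorted lineage cells of explanted presomitic mesoderm, cultured without (CTRL) or with (DIR) LDN and SAG. LDN blocks BMP receptors, and SAG switches on Hedgehog signalling through Smoothened. Unsorted trunk tissue of mutant (MUT) and wild-type (WT) embryos gave 3 libraries each. The mutated gene is not named in the labels, and the series is titled for the long non-coding RNA PEAT. The labels state neither how long the explants were cultured, nor which length of presomitic mesoderm was taken, nor whether the newest somite was with it. Tissue taken and time in culture thus cannot be told apart in CTRL or DIR against SOMA. Whether replicates come from different embryos or cultures is not stated either, so the tests rest on a spread between samples that may be technical.

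In the tail end of the embryo, Wnt and FGF signals keep cells in an immature state, and the T-box factors T (brachyury) and Tbx6 and the bHLH factor Msgn1 direct them into presomitic mesoderm. As cells near the front of this tissue, Tbx6 and Notch signalling switch on the bHLH factor Mesp2, with its neighbour Mesp1, in the stripe that will become the next somite. Mesp2 in turn activates Ripply1 and Ripply2, which bind T-box proteins and recruit a corepressor, and the Ripply proteins are known for ending Tbx6 and Mesp2 activity as the border forms.

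Positions are those of the GENCODE M21 annotation on GRCm38. Mesp1 (chr7:79792241-79793788, minus strand) and Mesp2 (chr7:79810727-79813439, plus strand) lie 16938 bases apart, and Tbx6 (chr7:126781483-126785560, plus strand) is on the same chromosome. Ripply2 is at chr9:87015537-87019917 (plus strand), Msgn1, which has 1 exon, at chr12:11208360-11208972 (minus strand), T at chr17:8434423-8442496 (plus strand) and Ripply1 at chrX:139779549-139782353 (minus strand). No exon of the 7 genes overlaps an exon of another gene. The 250 bases before the RefSeq start (GRCm38.p6) are printed for both Ripply genes, which share a match to a T-box half-site and whose levels part after somite formation, and for T, whose level in culture was not called different from SOMA. Capitals mark matches to a short motif on either strand, TCACACC in the Ripply windows (chrX:139782354-139782603, minus strand, and chr9:87015287-87015536, plus strand) and CTTTGAA, read as its reverse complement, in the T window (chr17:8434173-8434422, plus strand).
Ripply1: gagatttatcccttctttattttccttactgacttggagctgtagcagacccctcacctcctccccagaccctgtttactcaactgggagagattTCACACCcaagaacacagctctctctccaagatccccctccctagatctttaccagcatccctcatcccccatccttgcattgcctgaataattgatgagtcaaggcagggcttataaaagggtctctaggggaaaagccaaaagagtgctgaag
Ripply2: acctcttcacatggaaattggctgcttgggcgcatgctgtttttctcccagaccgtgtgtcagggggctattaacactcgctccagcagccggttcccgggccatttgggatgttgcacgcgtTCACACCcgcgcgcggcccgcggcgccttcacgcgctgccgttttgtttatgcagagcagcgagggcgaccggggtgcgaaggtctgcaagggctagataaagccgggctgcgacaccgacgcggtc
T: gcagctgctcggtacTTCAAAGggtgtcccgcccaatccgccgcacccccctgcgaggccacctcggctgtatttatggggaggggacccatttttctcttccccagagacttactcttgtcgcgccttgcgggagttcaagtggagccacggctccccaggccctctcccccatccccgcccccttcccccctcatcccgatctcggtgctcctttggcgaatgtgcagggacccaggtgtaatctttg
The T-box half-site TCACACC began 155 bases before the start of Ripply1 and 127 before that of Ripply2. It was in 2 of the 7 windows and in 3.33% of all 32851 RefSeq windows of this length. CTTTGAA, a form of the LEF/TCF site of Wnt signalling, was in the windows of Mesp1, Msgn1 and T (3 of 7, against 4.46%), and its variant CTTTGAT in those of Mesp1 and Msgn1 (2 of 7, against 3.21%). GTGGGAA, the RBPJ site of Notch signalling, was in that of Msgn1 (1 of 7, against 5.42%). No match in the 7 windows overlaps another, and a match describes the sequence without showing that a factor binds there.

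Gene counts per library ran from 11541131 to 44363411 (SOMA 14090592 to 28047218, SOMB 14319991 to 25497288, CTRL 22441578 to 37275895, DIR 22897486 to 42002422). Levels are in CPM, counts divided by the TMM-scaled library size, as mean ± SD over libraries. Differences are log2 fold changes ± SE from edgeR's quasi-likelihood test, with p adjusted over all genes tested and called under 0.05. Several libraries stood apart. SOMB1 was the highest SOMB library for all members except Ripply1, and WT3 was the lowest WT library for all 7. CTRL1, DIR1 and DIR2 had 22.3 to 25.4% of alignments that were not unique, against 15.9 to 19.5% in the other cultures, and SOMA1 had 21.1%. SOMC1 and SOMC4, and SOMD1 and SOMD4, differed from each other by little more than sampling noise (chi-square per degree of freedom 1.95 and 1.91, against at least 9.24 in other pairs of a group), but by more than noise, and were kept as separate samples.

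**Figure D1:**
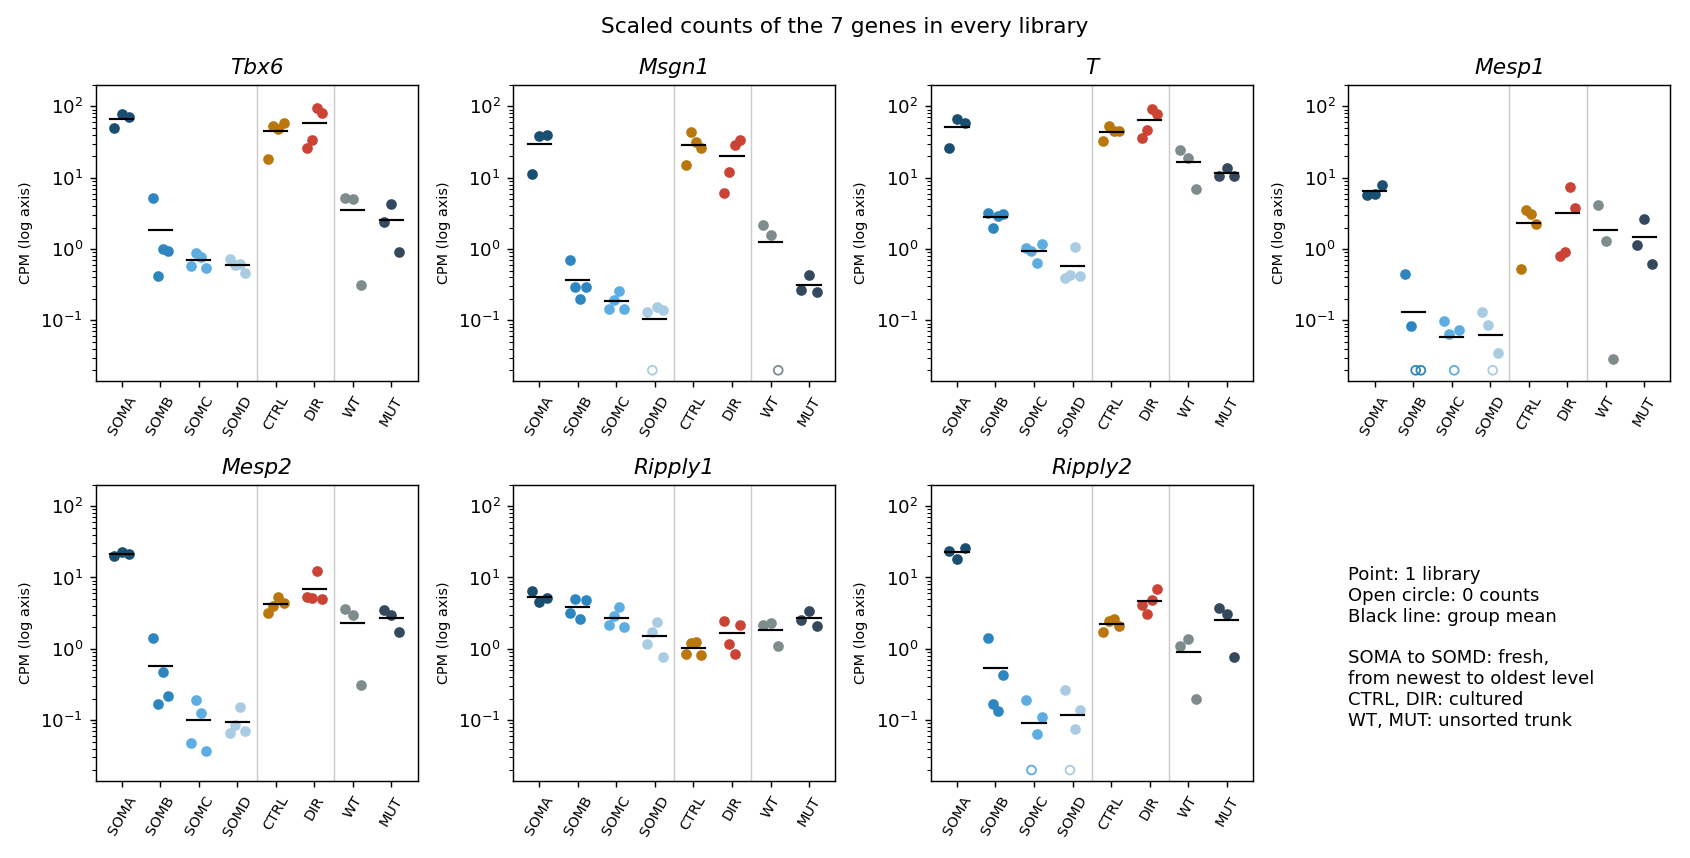
Level of each gene in CPM (vertical axis, log scale), with 1 point per library, open circles at the foot for 0 counts, a line at the group mean and the 8 groups along the horizontal axis; the trunk groups MUT and WT were scaled apart from the other 6. The ranges of Tbx6, Msgn1 and T in CTRL and DIR overlap those in SOMA and lie above SOMB, whereas all CTRL and DIR points of Ripply1 lie below those of SOMB.

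In SOMA, where presomitic mesoderm and a new border are both present, all 7 genes were detected in every library. Per kilobase of exon, Msgn1 was at 48.8 ± 26.4 CPM per kb, Tbx6 at 37.0 ± 8.51, Ripply2 at 30.6 ± 5.58 and T at 22.04 ± 9.42 (SD, n = 3 each). Mesp2 was lower at 11.0 ± 0.739, Ripply1 at 6.62 ± 1.32 and Mesp1 at 5.11 ± 0.931 CPM per kb. From Msgn1 to T, neighbours in this order differed by less than the wider of their SDs, and the ranges of Ripply1 and Mesp1 overlap. Relative to its mean, Mesp2 varied least between SOMA libraries, while T and Msgn1 varied most, with SOMA1 the lowest.

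After somite formation 6 of the 7 genes fell and Ripply1 did not pass the test. In SOMB against SOMA 3.12% of the 14602 genes tested were called lower and 2.44% higher, and the median log2 fold change was −5.15 over the 7 genes and 0.009 over all genes. Tbx6, the T-box factor that commits cells to presomitic mesoderm, had 49.5, 78.9 and 71.7 CPM in the SOMA libraries and 5.15, 0.417, 1.01 and 0.941 in the SOMB libraries. SOMB1 holds most of the remaining Tbx6, and the groups do not overlap, as for 8.25% of all genes in this direction. Tbx6 fell by 5.08 ± 0.57 on the log2 scale (adjusted p = 4.81e-06), to 2.96% of the SOMA level (95% interval 1.30 to 6.76%). Msgn1, the bHLH factor that drives cells out of the progenitor state, had 11.2, 38.2 and 40.3 CPM in SOMA and 0.711, 0.292, 0.201 and 0.290 in SOMB. It fell by 6.22 ± 0.62 (adjusted p = 1.08e-06), to 1.34% (0.547 to 3.28%), an interval that overlaps those of Tbx6, Mesp1, Mesp2 and Ripply2. T, the factor of tail bud and nascent mesoderm, had 26.3, 67.4 and 59.4 CPM in SOMA and 3.20, 1.96, 2.95 and 3.11 in SOMB. The SOMB libraries lay close together, and T fell by 4.19 ± 0.35 (adjusted p = 1.05e-07), to 5.48% (3.33 to 9.02%).

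The border genes of the Mesp family fell as far. Mesp2, which sets the border and the front identity of the next somite, had 19.9, 22.8 and 21.4 CPM in SOMA and 1.42, 0.167, 0.470 and 0.217 in SOMB. It fell by 5.15 ± 0.45 (adjusted p = 2.26e-07), to 2.81% (1.47 to 5.37%). Mesp1, its neighbour on the chromosome, had 5.67, 5.99 and 7.87 CPM in SOMA. Only SOMB1 (10 counts) and SOMB2 (2 counts) held any Mesp1 among the SOMB libraries, at 0.444 and 0.0834 CPM; the 0 counts of SOMB3 and SOMB4 allow up to 0.201 and 0.217 CPM, from 3 counts and for counting error only. Mesp1 fell by 5.35 ± 0.86 (adjusted p = 2.99e-04), to 2.46% (0.718 to 8.43%).

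The Ripply genes parted. Ripply2 had 23.2, 18.1 and 26.2 CPM in SOMA and 1.42, 0.167, 0.134 and 0.434 in SOMB, with no overlap. It fell by 5.29 ± 0.48 (adjusted p = 3.44e-07), to 2.55% (1.28 to 5.09%). Ripply1, its paralogue, had 6.55, 4.48 and 5.08 CPM in SOMA and 3.20, 5.00, 2.62 and 4.85 in SOMB. The groups overlap, and the difference was −0.46 ± 0.34 (adjusted p = 0.741); 72.7% was left, with an interval of 44.3 to 119.3% that lies above those of the other 6. Per kilobase Ripply1 had the highest mean of the 7 in SOMB (4.83 ± 1.47 CPM per kb). T was next at 1.21 ± 0.248, and Tbx6 was at 1.04 ± 1.22, mostly from SOMB1. Without SOMB1 the falls were larger, at −6.48 for Tbx6, −6.28 for Mesp2, −6.57 for Ripply2 and −7.26 for Mesp1, the last resting on 2 counts in SOMB. The same 6 genes were called when any 1 library was left out.

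From SOMB to the older somites none of the 7 genes was called, while 0.404% of all genes were called in SOMC against SOMB and 1.3% in SOMD against SOMC. These shares count SOMC1 and SOMC4, and SOMD1 and SOMD4, as separate samples. With these near-identical pairs summed, fewer genes were called in both comparisons. In the first of these, 4 of the 7 had an unadjusted p under 0.05 and DESeq2 called 3; in the second, 1 and 0. The first differences lean on SOMB1: without it Tbx6 went from −1.53 to −0.13, Mesp2 from −2.67 to −1.54 and Ripply2 from −2.45 to −1.17, and Mesp1 from −1.24 to 0.67. T had 1.02, 0.955, 0.637 and 1.17 CPM in SOMC, all below every SOMB library, as for 2.66% of all genes (−1.52 ± 0.40, adjusted p = 0.12). With replicate number as a block T was called (−1.55, adjusted p = 0.0392), although the numbers did not pair these samples. Ripply1 went on being counted in every library, at 2.19, 2.93, 3.82 and 2.01 CPM in SOMC and 1.18, 1.72, 2.36 and 0.771 in SOMD. Its group means were 5.37 ± 1.07 in SOMA, 3.92 ± 1.19 in SOMB, 2.74 ± 0.826 in SOMC and 1.51 ± 0.690 in SOMD, and no step between neighbours passed the test. Tbx6 stayed countable in SOMC (0.548 to 0.891 CPM) and SOMD (0.455 to 0.721 CPM), and Msgn1, Mesp1, Mesp2 and Ripply2 were each at or under 0.262 CPM in every SOMC and SOMD library.

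In culture the regulators of the presomitic state, Msgn1, Tbx6 and T, were not called different from SOMA, while Mesp2, Ripply1 and Ripply2 fell. The comparisons of SOMB, CTRL and DIR with SOMA share the SOMA libraries, so they are set side by side and the cultures are compared with SOMB directly further on. Msgn1 had 15.0, 43.9, 31.8 and 25.8 CPM in CTRL and 6.15, 11.95, 29.1 and 33.3 in DIR. Both ranges overlap that of SOMA. Msgn1 was at 97.8% of SOMA in CTRL (50.9 to 187.8%, adjusted p = 0.97) and 67.3% in DIR (35.1 to 129.1%, adjusted p = 0.334). Tbx6 had 18.6, 52.3, 48.9 and 59.3 CPM in CTRL and 26.3, 34.01, 93.6 and 80.6 in DIR. CTRL1, DIR1 and DIR2 were the lowest cultures for Tbx6 as for Msgn1, and both groups overlap SOMA. Tbx6 was at 67.2% of SOMA in CTRL (33.9 to 133.2%, adjusted p = 0.39) and 87.8% in DIR (44.2 to 174.2%, adjusted p = 0.784). T had 32.4, 53.4, 44.6 and 45.7 CPM in CTRL and 36.2, 46.1, 93.2 and 79.3 in DIR. It was at 86.6% of SOMA in CTRL (56.2 to 133.3%, adjusted p = 0.641) and at 125% in DIR (80.8 to 193.5%, adjusted p = 0.419). The intervals are wide, so an equal level is not shown. With the share of alignments that are not unique as a term in the fit, Tbx6 was called lower in CTRL.

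Mesp2, Ripply1 and Ripply2 fell in both cultures, while 12.6% of all genes were called lower in CTRL and 17.4% in DIR (17% and 20.1% higher). Mesp2 had 3.15, 4.05, 5.40 and 4.46 CPM in CTRL and 5.34, 5.14, 12.2 and 4.95 in DIR. All lay below the SOMA libraries, with DIR3 the nearest; 15.2% of all genes were lower without overlap in CTRL and 18% in DIR. Mesp2 was at 19.9% of SOMA in CTRL (11.7 to 33.9%, adjusted p = 7.75e-05) and 32.1% in DIR (19.0 to 54.1%, adjusted p = 0.00136). Ripply2 had 1.71, 2.48, 2.64 and 2.11 CPM in CTRL and 4.11, 3.03, 4.84 and 6.93 in DIR. It was at 9.91% of SOMA in CTRL (5.49 to 17.9%, adjusted p = 4.17e-06) and 20.96% in DIR (11.9 to 36.9%, adjusted p = 1.48e-04). Ripply1 had 0.840, 1.197, 1.25 and 0.824 CPM in CTRL and 2.47, 1.16, 0.854 and 2.15 in DIR. Ripply1, which did not pass the test in SOMB, was called lower in both cultures. It was at 19.0% of SOMA in CTRL (11.3 to 31.9%, adjusted p = 4.22e-05) and 31.2% in DIR (18.9 to 51.5%, adjusted p = 7.53e-04). Its mean was 1.03 ± 0.228 CPM in CTRL and 1.66 ± 0.773 in DIR, beside 1.51 ± 0.690 in SOMD, the oldest somites. SOMD was not tested against SOMA or the cultures.

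Mesp1 lay between. It had 0.525, 3.48, 3.11 and 2.23 CPM in CTRL, all below SOMA, and 0.807, 0.897, 7.36 and 3.76 in DIR, where DIR3 lay within the SOMA range. It was at 35.7% of SOMA in CTRL (14.5 to 87.8%, adjusted p = 0.0778) and 47.9% in DIR (19.6 to 117.4%, adjusted p = 0.186). CTRL1, DIR1 and DIR2, the cultures with the larger share of alignments that were not unique, were also left out, a choice made after the values were seen. Mesp1 was then called lower in CTRL (−1.14, adjusted p = 0.0202) and T higher in DIR (0.77, adjusted p = 0.0212). The other calls on the 7 genes against SOMA were as before. Within their groups the libraries left out were the lowest for Mesp1 and T, so these calls depend on the choice. Mesp1 was also called lower in DIR without DIR3 (−1.86, adjusted p = 0.0198). The median log2 fold change of the 7 genes was −1.49 in CTRL and −1.06 in DIR, against 0.028 and 0.01 over all genes.

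**Figure D2:**
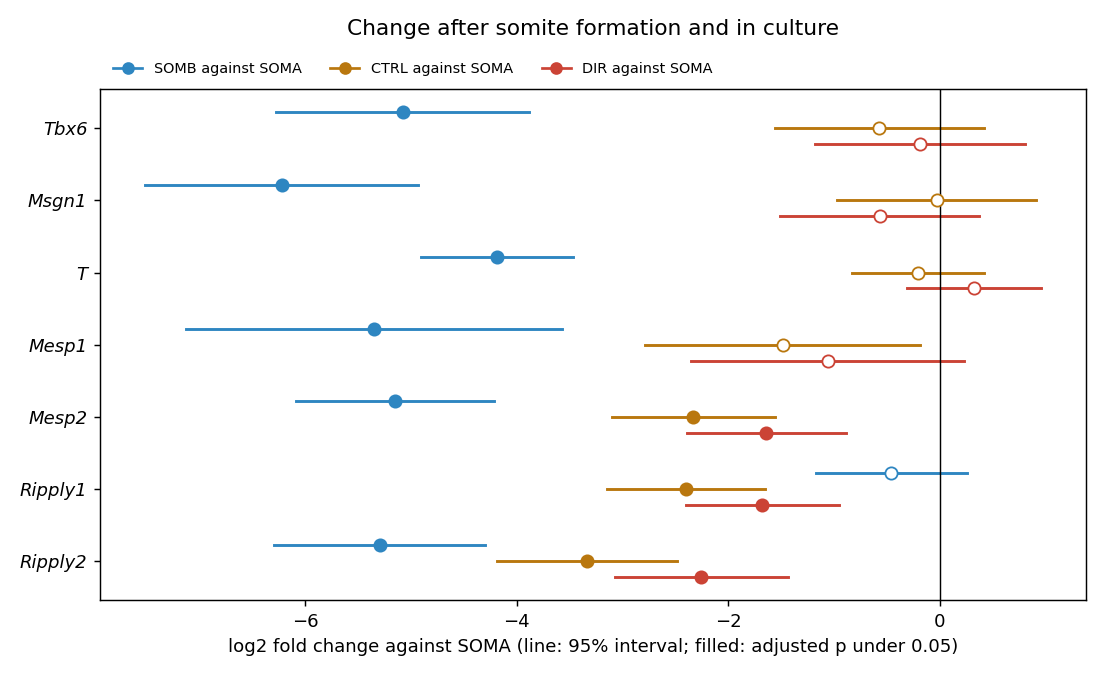
Log2 fold change of each gene against SOMA (horizontal axis) with its 95% interval as a line, for SOMB, CTRL and DIR; filled points passed an adjusted p of 0.05. Tbx6, Msgn1 and T are not called in either culture, with intervals that include 0, and lie below −4 in SOMB. Mesp2 and Ripply2 are lower in all 3 groups, and Ripply1 is called lower in the cultures and not in SOMB.

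Set against SOMB directly, which leaves SOMA out, all 7 genes differed from both cultures, and none of the 7 overlapped between CTRL and SOMB (17.8% of all genes were higher in CTRL without overlap and 13.8% lower). In this comparison 21% of all genes were called higher in CTRL and 16.4% lower. Msgn1 was 73.0-fold higher in CTRL than in SOMB (6.19 ± 0.61, adjusted p = 1.29e-07), Tbx6 22.7-fold (4.51 ± 0.55, adjusted p = 2.14e-06) and T 15.8-fold (3.98 ± 0.33, adjusted p = 1.57e-08). The border genes also stood higher in CTRL, Mesp1 by 14.5-fold (3.86 ± 0.85, adjusted p = 0.00118), Mesp2 by 7.06-fold (2.82 ± 0.43, adjusted p = 2.95e-05) and Ripply2 by 3.88-fold (1.96 ± 0.47, adjusted p = 0.00231). Ripply1 went the other way and was 3.83-fold lower in CTRL (−1.94 ± 0.34, adjusted p = 1.62e-04). Without SOMB1 the differences were larger, at 5.90 for Tbx6, 5.77 for Mesp1, 3.95 for Mesp2 and 3.24 for Ripply2.

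DIR differed from SOMB in the same directions, with 23.6% of all genes called higher and 21% lower. The log2 differences were 5.65 ± 0.60 for Msgn1, 4.89 ± 0.56 for Tbx6, 4.51 ± 0.34 for T, 4.28 ± 0.84 for Mesp1, 3.51 ± 0.43 for Mesp2 and 3.04 ± 0.46 for Ripply2. Ripply1 was lower by −1.22 ± 0.33, and the adjusted p of the 7 genes ran from 1.97e-09 for T to 0.00506 for Ripply1. Without SOMB1 they were 6.29 for Tbx6, 6.20 for Mesp1, 4.64 for Mesp2 and 4.32 for Ripply2, and without DIR3 Mesp1 was at 3.49.

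The share of the border genes within the presomitic signal can be read in each library as counts per 100 Tbx6 counts. This measure was chosen after the values were seen and is given as a description only. It is made of the same counts as the levels above, so it is no separate result. Mesp2 had 28.9 to 40.3 counts per 100 Tbx6 counts in SOMA, 7.51 to 16.9 in CTRL and 6.15 to 20.3 in DIR. Ripply2 had 22.9 to 46.9 in SOMA, 3.55 to 9.17 in CTRL and 5.17 to 15.6 in DIR. For both genes SOMA does not overlap either culture, as for their levels, and a share over all genes is not given for such ratios. Ripply1 had 5.67 to 13.3 in SOMA and 1.39 to 4.51 in CTRL, with no overlap, and 0.912 to 9.39 in DIR, which overlaps SOMA through 1 library. Mesp1 had 7.59 to 11.5 in SOMA and 2.82 to 6.65 in CTRL, and 2.64 to 7.86 in DIR, which just reaches the SOMA range. T per 100 Tbx6 counts was 53.1 to 85.4 in SOMA, 77.0 to 173.9 in CTRL and 98.4 to 137.5 in DIR, so T lay higher against Tbx6 in every DIR library than in SOMA.

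**Figure D3:**
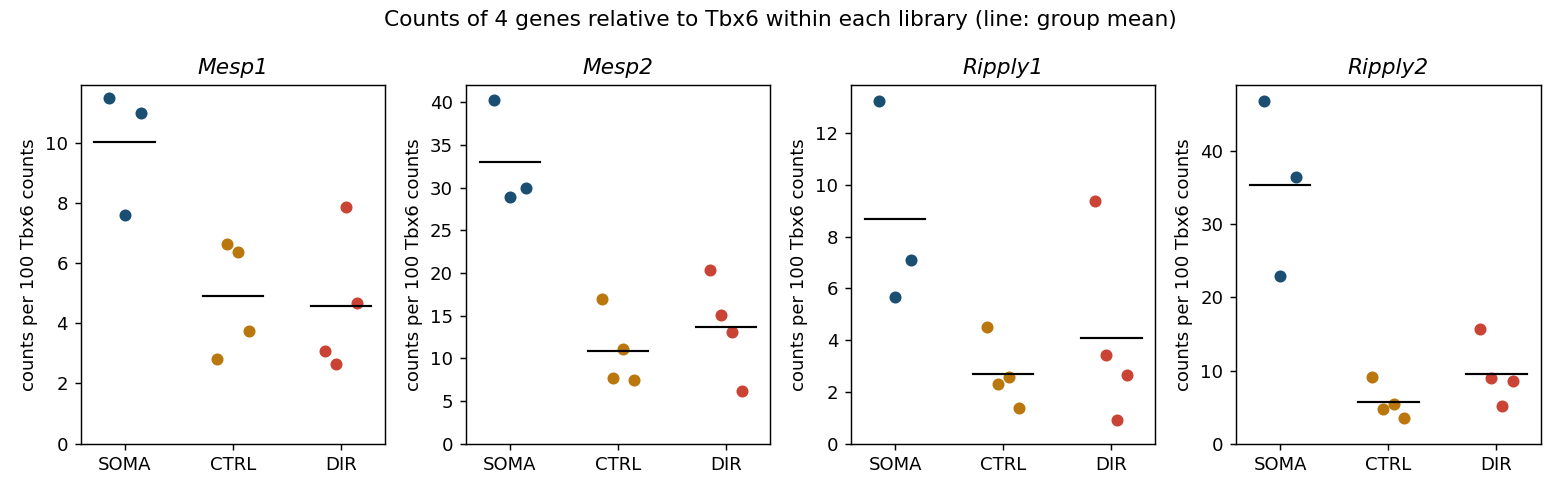
Counts of Mesp1, Mesp2, Ripply1 and Ripply2 per 100 Tbx6 counts of the same library (vertical axes, from 0), with 1 point per library of SOMA, CTRL and DIR and a line at the group mean. The ratios of Mesp2 and Ripply2 are lower in every culture than in every SOMA library.

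None of the 7 genes passed the threshold between cultures with and without LDN and SAG, while 7.46% of all genes were called in DIR against CTRL. Ripply1 and Ripply2 had an unadjusted p under 0.05, and DESeq2 called 1, Ripply2 (1.099, adjusted p = 0.0454). Ripply2 had the largest difference of the 7, 1.08 ± 0.38 (adjusted p = 0.0792), and every DIR library lay above every CTRL library, which held for 4.29% of all genes. Mesp2 differed by 0.69 ± 0.35 (adjusted p = 0.199), Ripply1 by 0.72 ± 0.34 (adjusted p = 0.182), T by 0.53 ± 0.28 (adjusted p = 0.221), Tbx6 by 0.39 ± 0.44 (adjusted p = 0.608), Mesp1 by 0.43 ± 0.59 and Msgn1 by −0.54 ± 0.42 (adjusted p = 0.43). The ranges of each of these 6 genes overlap, and DIR1 and DIR2 lay below DIR3 and DIR4 for Tbx6, Msgn1 and T.

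Markers fixed for other cell types were read beside these levels. Presomitic genes outside the 7 (Hes7, Dll1, Dll3 and Cdx4, 4 of 4 detected) summed to 417 to 626.9 CPM in SOMA and 29.8 to 60.5 in SOMB. The sums were 224.6 to 376 in CTRL and 208.3 to 593.8 in DIR. By this sum every culture lay above SOMB, and every CTRL library lay below SOMA. Dll1 had the largest mean of the 4, 317.1 CPM in SOMA and 147.4 in CTRL. The means of Dll3 were 134.7 and 71.42 CPM, and those of Hes7 34.85 and 28.04. Cdx4 went the other way, with means of 60.38 CPM in SOMA and 82.54 in CTRL, so the lower sum does not hold for each marker. Genes of formed paraxial mesoderm (Meox1, Tcf15, Foxc2 and Pax3) summed to 567.3 to 698.8 CPM in SOMA, 345.4 to 550.3 in CTRL and 324.3 to 585.7 in DIR. T is also a notochord gene, and Noto, Shh, Foxa2 and Chrd together summed to 3.40 to 9.21 CPM in the sorted libraries. Within this sum the mean of Noto was 1.194 CPM in SOMA, 0.6922 in CTRL and 1.498 in DIR, against 0.07651 in SOMB. The means of Shh, Foxa2 and Chrd showed no such fall from SOMA to SOMB. The part of notochord cells in the T level of the sorted libraries was not tested. Endothelial markers summed to 43.0 to 161.5 CPM in SOMA, 175.5 to 240 in CTRL and 163.9 to 282.1 in DIR, above SOMA in every culture. Lateral plate and heart markers (6 of 6 in the files) summed to 111 to 139.2 CPM in SOMA, 129.3 to 224.1 in CTRL and 41.9 to 68.9 in DIR, below SOMA in every DIR library. The part of other cells in the lower levels of Mesp2 and the Ripply genes was not tested. In such sums of RNA, fewer cells of a type and less RNA per cell cannot be told apart.

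In the trunk edgeR called none of the 7 genes in MUT against WT, and none had an unadjusted p under 0.05, while 0.338% of all genes were called. DESeq2 gave an adjusted p for T alone (0.61) and none for the other 6, which it could thus not call. T had 24.4, 19.1 and 6.97 CPM in WT and 10.7, 13.7 and 10.6 in MUT, on a scale set apart from that of the sorted libraries. WT3 was the low library, and without it T was called lower in MUT (−0.90, adjusted p = 0.0489; −0.53 ± 0.36 and 0.554 with it). Tbx6 had 5.22, 5.02 and 0.316 CPM in WT and 2.38, 4.33 and 0.918 in MUT. Msgn1 had 2.20, 1.57 and 0 CPM in WT, where the 0 counts allow up to 0.0861 CPM, and 0.269, 0.436 and 0.250 in MUT. Ripply2 had 1.097, 1.38 and 0.201 CPM in WT and 3.70, 3.11 and 0.779 in MUT (1.51 ± 0.71, adjusted p = 0.356), again low in WT3. T stood at 315.1 to 2209 counts per 100 Tbx6 counts in the trunk, above every sorted library of SOMA or culture. The SOMB libraries, with 10 to 116 Tbx6 counts, had 62.1 to 470, which overlaps the trunk range. The notochord markers were at 46.8 to 60.6 CPM in WT and 48.2 to 52.7 in MUT, and their part in the T level there was not tested. The groups of the trunk were not compared with the sorted groups by a test.

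Other genes of the same pathways were read from 4 lists, given as counts beside the background above. Of 8 clock and Notch genes, 6 fell in SOMB against SOMA, and 3 fell and 0 rose in CTRL; the medians were −3.17 and −0.74. Hes7, the repressor that beats as the segmentation clock, fell by 4.71 ± 0.76 in SOMB (adjusted p = 3.19e-04), from 34.9 ± 7.62 to 1.29 ± 0.991 CPM, and had 28.04 ± 15.8 CPM in CTRL (−0.31 ± 0.63, adjusted p = 0.748). The Notch ligand Dll1 fell by 3.42 ± 0.24 in SOMB and by 1.11 ± 0.22 in CTRL. Lfng, which modifies Notch and is expressed near the border, fell in both (−2.92 ± 0.33 and −1.83 ± 0.31), as did the receptor Notch1 (−1.83 ± 0.21 and −1.47 ± 0.21). Dll3 and the Notch target Nrarp fell in SOMB (−3.82 ± 0.43 and −3.64 ± 0.25) and were not called in CTRL (−0.92 ± 0.39 and −0.57 ± 0.24).

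Of 16 posterior Wnt, FGF and tail bud genes, 12 fell in SOMB and none rose, with a median of −2.39. In CTRL 2 fell and 3 rose (median 0.35), and in DIR 5 fell and 2 rose. The ligand Fgf17 fell by 5.02 ± 0.75 in SOMB, from 7.95 ± 4.30 to 0.225 ± 0.240 CPM, and had 10.7 ± 5.03 CPM in CTRL (0.45, not called). Fgf3 (−4.50 ± 0.63) and the homeobox gene Cdx4 (−3.70 ± 0.46) fell in SOMB and were not called in CTRL (−0.18 and 0.46). Rspo3, which strengthens Wnt signalling, moved in opposite directions, down by −2.65 ± 0.20 in SOMB and up by 0.86 ± 0.20 in CTRL (adjusted p = 3.27e-08 and 0.00208). Fgf4 was also called in opposite directions; it had 0.275 ± 0.219 CPM in SOMA, 1 count over the 4 SOMB libraries, and 1.62 ± 0.441 CPM in CTRL (2.76 ± 0.46, adjusted p = 1.16e-04). Cyp26a1, which breaks down retinoic acid, rose in CTRL (1.87 ± 0.51, adjusted p = 0.00818), whereas Cdx1 (−1.65 ± 0.49) and Nkx1-2 (−1.60 ± 0.52) fell.

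Of 12 genes of somite formation and polarity, 8 fell in CTRL and 7 in DIR and none rose, while in SOMB 4 fell and 1 rose. The medians were −0.99, −0.77 and −0.37. Pcdh8, a protocadherin of the forming border, fell from 125.8 ± 21.8 CPM in SOMA to 22.9 ± 10.8 in CTRL (−2.46 ± 0.47) and 7.77 ± 8.34 in SOMB (−3.99 ± 0.50). Cer1, a secreted antagonist expressed in new somites, fell by 2.13 ± 0.49 in CTRL and by 2.69 ± 0.51 in SOMB. Aldh1a2, which makes retinoic acid in somites, fell in CTRL (−1.97 ± 0.34, adjusted p = 2.15e-04) and was not called in SOMB (0.41, adjusted p = 0.82), and Tcf15, a bHLH factor of somite epithelium, was called lower in CTRL (−1.57 ± 0.46, adjusted p = 0.0134) and not in SOMB (−0.23). Set against SOMB directly, both were lower in CTRL, Aldh1a2 by −2.37 ± 0.33 (adjusted p = 1.16e-05) and Tcf15 by −1.35 ± 0.44 (adjusted p = 0.0187). Meox2, a homeobox gene of formed somites, rose by 1.77 ± 0.28 in SOMB, and the ephrin receptor Epha4 fell by 0.98 ± 0.18. Of 6 T-box relatives tested (Eomes had too few counts), none was called in SOMB, with 1 at an unadjusted p under 0.05 and 1 called by DESeq2. Tbx5 (2.45) and Tbx1 (1.88) rose in CTRL, and in DIR 3 fell.

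**Figure D4:**
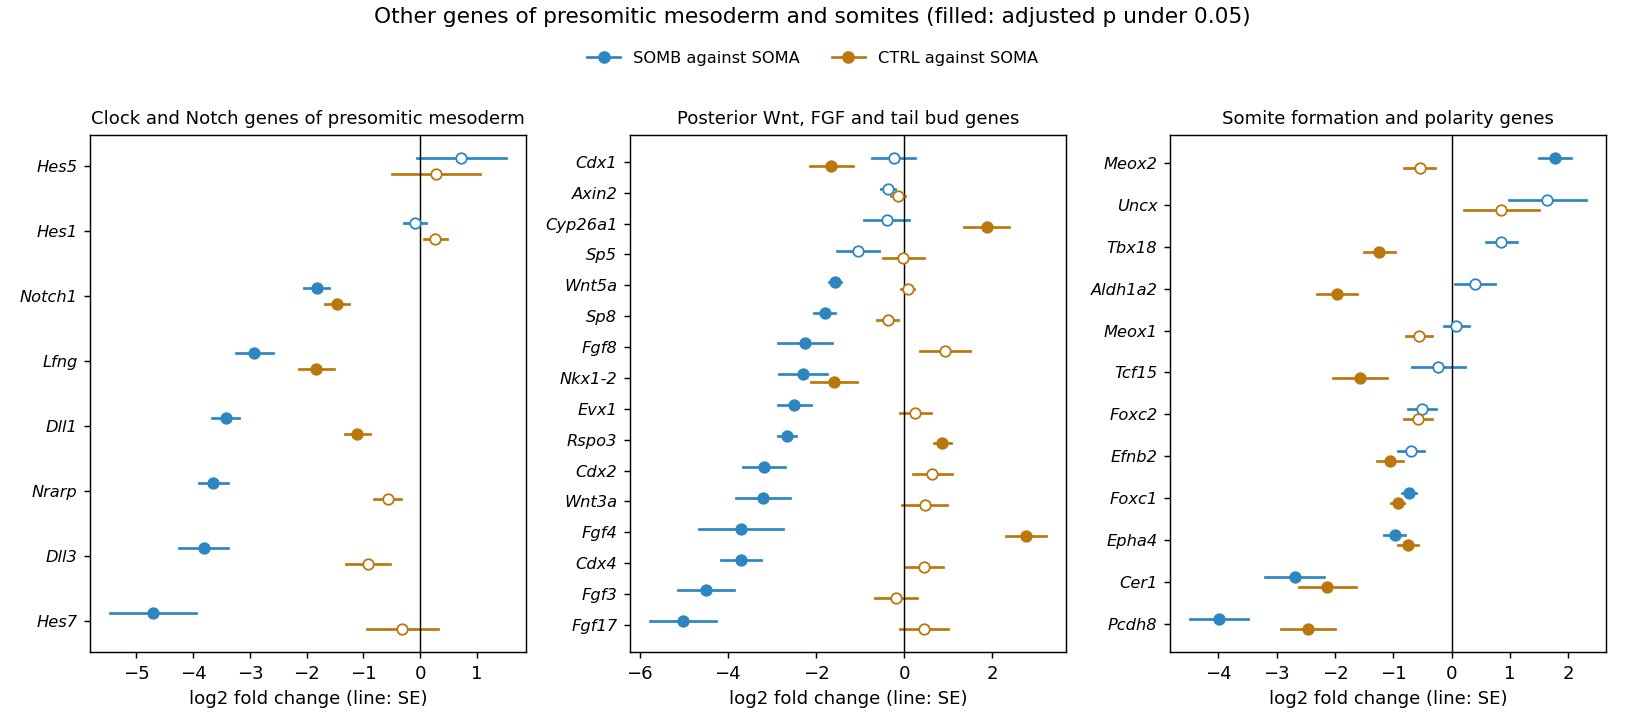
Log2 fold change against SOMA (horizontal axes, lines are SE) of clock and Notch genes, posterior Wnt, FGF and tail bud genes, and somite formation genes, in SOMB and in CTRL; filled points passed an adjusted p of 0.05. Hes7, Fgf3, Fgf17 and Cdx4 are low in SOMB and not called in CTRL, and Aldh1a2 and Tcf15 are called lower in CTRL and not called in SOMB.

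The genes most alike in pattern were found by Pearson's r of log2(CPM + 0.5) over the 29 libraries among 13677 genes. The libraries form groups, so r mainly follows the differences between groups and is given as a description. Tbx6 was most like Tll2 (0.970), Hes7 (0.968) and Gad1 (0.968), Msgn1 like Hes7 (0.966), Pglyrp3 (0.965) and Fgf3 (0.964), and T like Dll3 (0.979), Dll1 (0.975) and Nrarp (0.973). Mesp2 was most like Dll1 (0.953), Dll3 (0.944) and Sv2b (0.944), Mesp1 like Gzmk (0.919), Sv2b (0.911) and Dll3 (0.909), and Ripply2 like Mylip (0.917), Spock2 (0.913) and Mpzl2 (0.908). Among the 7 genes, Tbx6 and Msgn1 had an r of 0.974 and Mesp2 and Ripply2 one of 0.958. Ripply1 stood apart from the other 6 (r from −0.133 to 0.260), and its nearest genes were the somite homeobox gene Meox1 (0.810), Pard6g (0.792) and Glp2r (0.792).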

How the data were processed

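RNA of 29 libraries was extracted with Trizol and prepared with the TruSeq RNA v2 kit, which does not mark strand, per the labels' protocols. The deposited files hold whole-number read counts per gene made by the authors. TopHat2 2.0.9, Cufflinks, HTSeq 0.6 and DESeq2 1.10 were used with mm10, per the submitters' processing notes. No annotation or strand setting is stated in the labels. The HTSeq summary lines were left out of the counts: they hold 6.54 to 12.8% (no feature), 0.584 to 1.85% (ambiguous) and 15.9 to 40.6% (not unique) of a library.

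Groups came from the titles and descriptions. The 23 sorted libraries were fitted together, so that all 6 groups share 1 estimate of spread, and MUT with WT in a fit of its own. After filterByExpr (at least 10 counts, total 15) 14602 and 14485 genes were left. Libraries were scaled by TMM, and tests were made in edgeR 4.0.16 under R 4.3.3 (quasi-likelihood F test, Benjamini-Hochberg adjustment). The script was tested on simulated data first. Of the gene symbols 20953 matched GENCODE M21; promoter windows came from RefSeq.

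The 7 genes, gene lists and tests were chosen with earlier results of these data known. Genes outside the 7 were named by rule: from each list up to 4 with the largest change past the threshold in SOMB and in CTRL against SOMA, those called in opposite directions, and the 3 genes most alike to each of the 7. Alternatives were other scalings, no filter, DESeq2 1.42.0, other sets of libraries in the fit, replicate number as a block, near-identical libraries summed and each library left out. Added after seeing the data were the share of alignments that are not unique as a term, CTRL1, DIR1 and DIR2 left out, SOMA1 and SOMB1 left out, and counts per Tbx6 count. Replicate numbers were taken to pair samples where, in every same-number pair, deviations from group means correlated above 0.1. SOMB against SOMA met this (0.44 to 0.492), as did SOMD against SOMC (0.427 to 0.542) and no other comparison; the labels do not state a pairing.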

Additional observations from a re-analysis of the deposited data

Results flagged for a closer look

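Of 35 sets of 4 libraries examined, 1 gene in 1 group each, 4 had a library far from the other 3 by Dixon's criterion. For independent, normally distributed values chance alone gives about 1 in 20. The sets share libraries and some hold few counts, so this rate need not apply to them. Mesp2 was at 12.2 CPM in DIR3, with the next library at 5.34 CPM. Tbx6 was at 5.15 CPM in SOMB1, with the next at 1.01 CPM. T was at 1.07 CPM in SOMD3, with the next at 0.430 CPM. Msgn1 was at 0 CPM in SOMD2, the library with the lowest total count, with the next at 0.131 CPM. Mesp2 was called lower in DIR against SOMA also without DIR3, and Tbx6 lower in SOMB against SOMA also without SOMB1.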

How the results depend on the processing

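No called result on a single one of the 7 genes reversed or lost its call under the settings run. Over all their results, 444 values with 1 library left out and 511 under other settings kept direction and side of the threshold, 4 and 12 passed it only under the alternative, and 21 and 8 changed sign. The 29 sign changes fall on 12 results, none called with or without the change. With 1 library left out, log2 fold changes ran from −0.37 to 0.78 (Mesp1) in DIR against CTRL, from −0.43 to 0.25 (Msgn1) and −0.53 to 0.044 (T) in CTRL against SOMA, from −0.50 to 0.063 (Tbx6) in DIR against SOMA, and from −1.56 to 0.67 (Mesp1) in SOMC against SOMB. In SOMD against SOMC they ran from −0.66 to 0.24 (Mesp1), −0.38 to 0.44 (Mesp2) and −0.12 to 0.90 (Ripply2), and in MUT against WT from −1.06 to 1.14 (Mesp1) and −0.28 to 0.74 (Mesp2). Msgn1 in CTRL against SOMA was 0.047 without scaling, 0.091 with the replicate block and 0.19 without CTRL1, DIR1 and DIR2; without these 3, Msgn1 was 0.077 and Tbx6 0.39 in DIR against SOMA. With the share of alignments that are not unique as a term, Tbx6 was 0.052 in DIR against SOMA and Msgn1 0.064 in DIR against CTRL. Mesp1 in MUT against WT was 0.43 with the replicate block. The number of the 7 genes called rose from 3 to 5 in CTRL against SOMA with the share of alignments that are not unique as a term (Mesp1 −2.22 and Tbx6 −0.97 were added). It rose from 0 to 1 in DIR against CTRL with DESeq2 or with that term, from 0 to 3 (DESeq2) or 1 (2 groups only, or replicate block) in SOMC against SOMB. With 1 library left out it was 0 to 1 in DIR against CTRL, SOMC against SOMB and MUT against WT, 3 to 4 in DIR against SOMA, and as reported elsewhere. Over all genes, calls in DIR against CTRL (1089) became 1817 with DESeq2, 106 with 2 groups only, 724 with the term and 331 to 3030 with 1 library left out. Calls in DIR against SOMA (5470) became 3346 with 2 groups only. MUT against WT (49) became 106 without scaling, 197 without the filter, 755 with DESeq2, 328 with the replicate block, 21 with all 29 libraries and 0 to 88 with 1 left out. SOMC against SOMB (59) became 135 with DESeq2, 39 with all 29 libraries, 114 with the 15 SOM libraries, 9 with near-identical pairs summed and 8 to 63 with 1 left out. SOMD against SOMC (190) became 307, 322 and 43 under DESeq2, the 15 SOM libraries and summed pairs, 351 with 2 groups only and 80 to 200 with 1 left out. SOMB against SOMA (812) gave 499 to 730 and CTRL against SOMA 2928 to 4752 with 1 left out. The causes were not tested. The replicate block changed no other call on the 7 genes. At this depth a gene with 0 counts in SOMD2 could be at up to 0.258 CPM.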
